A study of Homo sapiens with 8 samples.

Results

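The RAS-ERK output and feedback genes described here are 10 genes whose transcripts are read as the output of the RAS-RAF-MEK-ERK kinase cascade: the phosphatase genes DUSP4, DUSP5 and DUSP6, the Sprouty genes SPRY2 and SPRY4, the Sprouty-related genes SPRED1 and SPRED2, the ETS transcription factor genes ETV4 and ETV5, and PHLDA1. They were taken by symbol from the 59050 gene symbols counted in each library, and no threshold on measured values was used to choose them. All 10 were found, and all 10 were among the 16219 genes with enough counts to be tested. RNA sequencing was done on 8 tumours grown in mice from the human lung cancer line H2122, an established cell line. Of these, 4 tumours came from parental cells, labelled wild type for the targeted gene, and 4 from cells with a knockout of SMARCA4, the gene of an ATPase that drives SWI/SNF chromatin remodellers. All 8 tumours received vehicle, and none was drug-treated. The host strain, age and sex of the mice, the time of collection, and whether the knockout cells were 1 clone or a pool are not given in the sources used here. Nothing in the labels says how the tumours relate to separate animals or cell injections, so the p-values measure the spread between these samples.

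In the RAS-ERK cascade, growth factor receptors load RAS with GTP, RAS recruits RAF kinases, RAF activates MEK, and MEK phosphorylates ERK. Active ERK raises a set of transcripts that includes its own brakes. DUSP phosphatases remove phosphate from ERK and related kinases, Sprouty proteins dampen the step from receptor to RAS, and SPRED proteins bring the RAS-inactivating protein neurofibromin to the membrane. ETV4 and ETV5 carry the signal on to further genes and are repressed by the ERK-controlled factor CIC. In lung cancers these transcripts are widely used as a readout of pathway activity.

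Levels are given as CPM, counts relative to the library size after scaling by edgeR's TMM method. Gene counts were 19785922 to 23191698 in parental and 20662882 to 21981123 in knockout libraries. SMARCA4 itself was at 221 ± 16.0 CPM (SD, n = 4) with intact SMARCA4 and at 27.3 ± 3.90 CPM (SD, n = 4) after its knockout, with every library on the side its label gives. Of the 8 markers listed for the carcinoma cells, EPCAM, CDH1, KRT7, KRT8, KRT18 and KRT19 had group means of at least 164 CPM. VIM and CDH2, listed for a mesenchymal state, had lower means. VIM was at 20.9 and 15.8 CPM and CDH2 at 6.49 and 2.20 CPM in parental and knockout tumours. Over the parental tumours VIM ran from 4.89 to 44.3 CPM, highest in replicates 2 and 3. Whether its reads came from carcinoma or host cells was not tested. By edgeR's test KRT19 (log2 fold change -1.01, adjusted p = 8.49e-05), KRT7 (-0.71, adjusted p = 0.000333) and CDH2 (-1.56, adjusted p = 0.000180) were lower in knockout tumours. Markers of host cells can be supplied by mouse reads that resemble human transcripts. Each host list had some counts in every library, but not each marker did. MYH1, MYH2 and MYH4 were at 0 in several libraries of both groups, and CDH5 was at 0 in all 4 knockout libraries. Summed leukocyte markers (8 genes) were at 7.36 to 71.2 CPM in parental and 12.8 to 30.4 CPM in knockout tumours, with parental replicates 2 and 3 highest. The 7 fibroblast markers summed to 179 to 607 and 343 to 603 CPM, the 6 endothelial markers to 7.20 to 17.9 and 8.87 to 15.3 CPM, and the 7 skeletal muscle markers to 3.88 to 42.6 and 2.39 to 16.6 CPM. Although these ranges overlapped, 1 fibroblast, 1 endothelial and 1 muscle marker were called, and the other tested markers of those lists were not. The fibroblast sum was mostly COL1A1, and LUM rose from 0.374 to 12.4 CPM (log2 fold change 5.00, edgeR adjusted p = 1.98e-06). COL1A1 (log2 fold change 0.34), COL1A2 (0.60) and COL3A1 (-0.16) gave no call, and DCN, PDGFRA and PDGFRB had too few counts to be tested. VWF fell from 1.97 to 0.378 CPM (log2 fold change -2.37, edgeR adjusted p = 0.000410). PECAM1, the only other endothelial marker tested, gave no call (log2 fold change 0.30). MB, the only muscle marker tested, was called lower. No leukocyte marker was called, and no marker of these lists was at 0 in all 8 libraries. The share of reads outside annotated features was 6.08% to 8.76% in parental and 7.32% to 10.4% in knockout libraries, and mitochondrial genes took 4.74% to 9.47% and 8.57% to 10.9% of gene counts. In bulk tumours, fewer cells of a type and less RNA per cell cannot be told apart. Apart from leaving out tumours, the part of host cells and library composition in the results was not tested.

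Loss of SMARCA4 was accompanied by lower ETV4, PHLDA1, DUSP6 and SPRED2 and by higher SPRY2, while DUSP4, the most abundant of the 10 per kilobase, had nearly the same mean in both groups. By edgeR's quasi-likelihood test with Benjamini-Hochberg adjustment over all genes (adjusted p under 0.05), 5 of the 10 genes changed. Over all genes tested 4385 changed, or 27.0%. Lower in knockout tumours were 4 of the 10, against 14.1% of all genes, and higher was 1 of the 10, against 13.0%. The same 5 genes were those whose groups did not overlap, which was the case for 29.3% of all genes. The median log2 fold change of the 10 was -0.32, against 0.0035 over all genes tested, and 8 of the 10 values were negative. None of the 5 changes reached 2-fold in the main fit. ETV4 was close to 2-fold and passed it in some alternatives, with log2 fold changes from -1.07 to -0.91. The 5 changes stayed past the threshold in the same direction in all 18 alternative analyses, which varied the tool, the scaling, the filter and the tumours included.

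**Figure D1:**
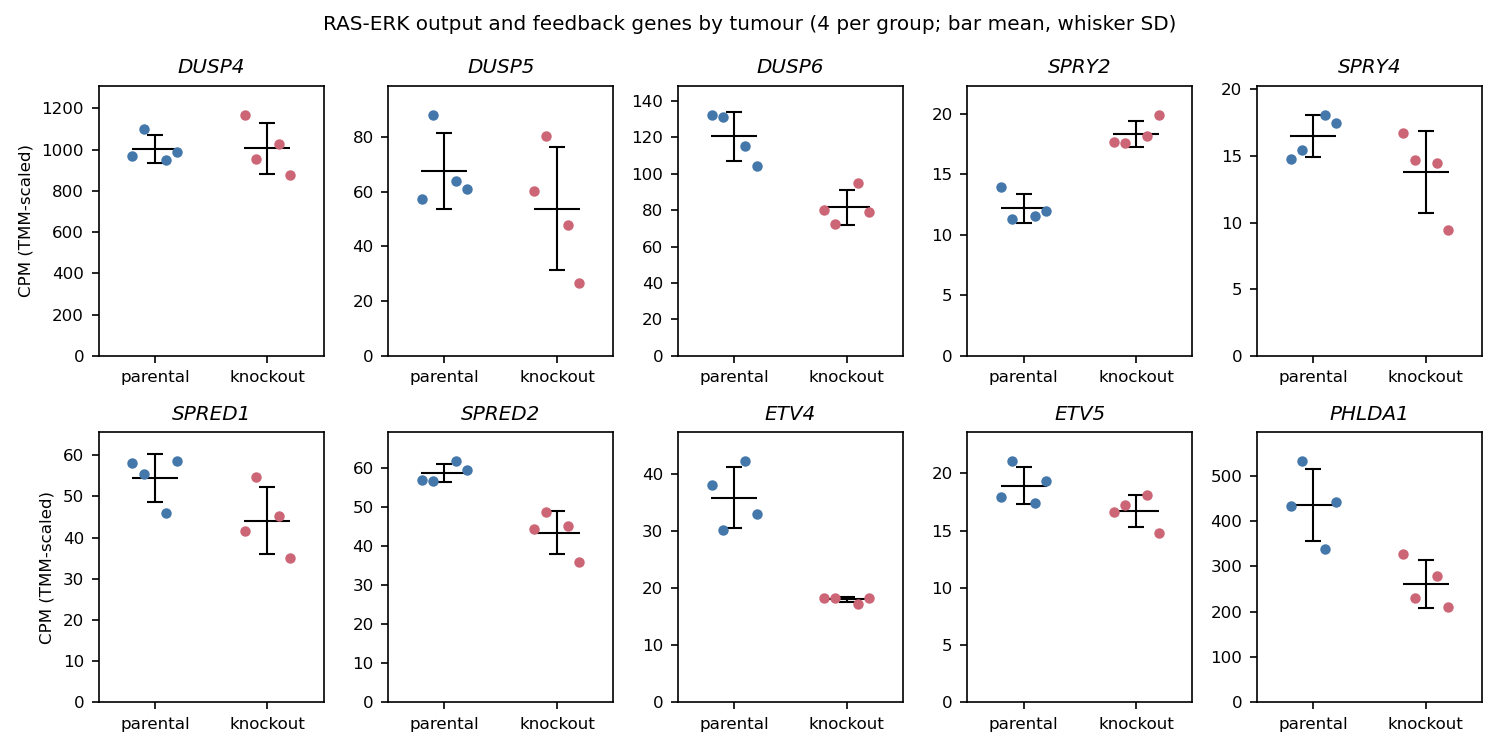
TMM-scaled CPM (y axis, from 0) of the 10 genes in the 4 parental (blue) and 4 knockout (red) tumours; the horizontal bar is the mean and the whisker the SD. The knockout tumours lie below all parental tumours for DUSP6, SPRED2, ETV4 and PHLDA1 and above them for SPRY2.

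Promoters were read because ETS factors, CIC, AP-1 and SRF are known transcription factors at the end of this cascade. RefSeq starts on GRCh38.p14 gave 9 promoters for 6 of the 10 genes, whether changed (DUSP6, SPRY2, SPRED2 and PHLDA1) or not (SPRY4 and SPRED1). ETV4, ETV5 and DUSP5 had no entry in the promoter set used, and DUSP4 was left out of the reading. None of these, ETV4 included, was searched. The windows of DUSP6, SPRED1 and PHLDA1 have their far end inside an annotated exon. In the SPRY4 window the first 80 bases from the far end are free of annotated exons. The 250 bases before each start were searched on both strands for the ETS core CCGGAA, the AP-1 site TGANTCA, the cyclic AMP response element TGACGTCA, the CIC site TGAATGNA and the CArG box bound by SRF. The sequence of the gene that rose is shown beside that of one that fell, 5′ to 3′, with the ETS core in capitals. SPRY2 is at chr13:80341127-80341376, minus strand. SPRED2 is at chr2:65432638-65432849, minus strand, shown up to the first annotated exon, without the last 38 bases.
SPRY2: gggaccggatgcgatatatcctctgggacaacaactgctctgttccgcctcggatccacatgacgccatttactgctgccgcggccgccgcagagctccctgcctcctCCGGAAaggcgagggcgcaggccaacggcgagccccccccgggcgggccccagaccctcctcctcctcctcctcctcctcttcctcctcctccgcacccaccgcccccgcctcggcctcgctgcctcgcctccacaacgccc
SPRED2: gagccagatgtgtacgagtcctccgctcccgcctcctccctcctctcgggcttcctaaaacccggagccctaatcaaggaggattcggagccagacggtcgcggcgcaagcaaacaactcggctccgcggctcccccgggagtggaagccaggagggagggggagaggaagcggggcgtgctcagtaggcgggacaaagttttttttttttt
The ETS core was present in 2 of the 9 promoters, against 14.5% of 35114 promoters of the same length. It was in 1 of the 3 of SPRY2 (142 to 137 bases before the start). In that of PHLDA1 it was on the other strand (89 to 84 bases before the start), in a window whose far end lies in an annotated exon. Of these 2 genes, SPRY2 rose and PHLDA1 fell. The other 4 motifs had no match in these windows. They occur in 6.57% (AP-1), 1.65% (cyclic AMP response element), 3.25% (CIC) and 1.16% (CArG box) of all promoters. The GC content of the SPRY2 and SPRED2 windows was 70.4% and 58.8%, against a median of 58% over all promoters.

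Levels of the 10 genes were compared per length, as CPM per kilobase of annotated exon (GENCODE 29). In parental tumours DUSP4 was highest at 138 ± 9.39 (SD, n = 4), followed by PHLDA1 at 54.0 ± 9.83. DUSP6 (26.0 ± 2.90) and DUSP5 (25.8 ± 5.32) came next, and their ranges over tumours overlapped. Below them were SPRED2 (11.4 ± 0.456) and ETV4 (9.97 ± 1.48), which also overlapped. At the low end, SPRED1 (6.60 ± 0.711), SPRY2 (4.01 ± 0.394), ETV5 (3.26 ± 0.281) and SPRY4 (2.51 ± 0.240) were each apart from the neighbour in that order. The order was different in the middle of the list in knockout tumours. There SPRY2 (6.02 ± 0.356 CPM per kilobase) stood above SPRED1 (5.35 ± 0.992) and ETV4 (5.01 ± 0.139), with ranges that overlapped between SPRY2 and SPRED1 and between SPRED1 and ETV4. PHLDA1 (32.5 ± 6.57) overlapped DUSP5 (20.5 ± 8.60) and DUSP5 overlapped DUSP6 (17.6 ± 2.09). DUSP4 remained first at 139 ± 17.1 and SPRY4 last at 2.11 ± 0.469. These levels use all annotated exons of a gene, so they depend on which isoforms the tumours express.

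Of the transcription factors, ETV4 had the largest change among the 10. ETV4 (ENSG00000175832, chromosome 17, 43527844 to 43579620, minus strand, GENCODE 29 on GRCh38) encodes a factor of the PEA3 group of the ETS family. It was at 38.1, 30.3, 42.3 and 33.1 CPM in parental replicates 1 to 4 and at 18.3, 18.4, 17.3 and 18.3 CPM in knockout replicates 1 to 4. The lowest parental tumour thus lay well above the highest knockout tumour, and the knockout tumours were close to each other (coefficient of variation 2.78%, against 14.8% in parental tumours). The log2 fold change was -0.99 (95% interval -1.24 to -0.75, edgeR adjusted p = 7.44e-05, SE 0.112), or 50.3% of the level in parental tumours. ETV4 shares 68 exon bases with DHX8 on the opposite strand, and reads there may be lost or misassigned.

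ETV5 (ENSG00000244405, chromosome 3, 186046308 to 186110318, minus strand), the other PEA3 gene in the list, was at 18.0, 21.0, 17.4 and 19.3 CPM in parental and 16.6, 17.2, 18.1 and 14.8 CPM in knockout tumours. The groups overlapped. Its log2 fold change was -0.18 (95% interval -0.42 to 0.05, edgeR adjusted p = 0.232). ETV5 shares 164 exon bases with DGKG on the same strand, and reads there may be lost or misassigned. The third PEA3 gene, ETV1, was at 46.1 ± 10.0 and 35.5 ± 6.47 CPM (n = 4 each, with SD), a log2 fold change of -0.38 with an edgeR adjusted p of 0.138. ETV1 passed the threshold without parental replicate 4 (edgeR adjusted p = 0.0172).

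Within the same tumour, ETV4 and ETV5 counts can be set against each other without any scaling of the library. The log2 ratio of ETV4 to ETV5 was 1.08, 0.52, 1.28 and 0.78 in parental and 0.14, 0.09, -0.06 and 0.31 in knockout tumours. Every knockout ratio was below every parental ratio, and the group means differed by -0.80 (p = 0.0286 by the exact permutation test, two-sided, which can go no lower with 4 against 4 tumours). This was 1 of 6 pairs of relatives, chosen after the values were seen, and after Benjamini-Hochberg adjustment over the 6 the permutation p was 0.0572. With 6 pairs, adjustment can pass 0.05 only if 4 or more reach the smallest p.

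Of the phosphatase genes, DUSP6 fell and the other two gave no call. DUSP6 (ENSG00000139318, chromosome 12, 89347232 to 89353271, minus strand) encodes a cytoplasmic phosphatase specific for ERK and is a widely used ERK readout. It was at 132, 131, 115 and 104 CPM in parental and 80.2, 72.3, 95.2 and 78.8 CPM in knockout tumours, with no overlap. On the log2 scale the change was -0.56 (95% interval -0.80 to -0.32, edgeR adjusted p = 0.00279, SE 0.109), or 67.7% of the level in parental tumours. An antisense gene annotated over 1875 exon bases of DUSP6 may bear on this value, since the strand setting and the counting options are not given. That antisense gene is in GENCODE 29 but is not among the counted symbols, so whether reads there were shared was not tested.

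DUSP4 (ENSG00000120875, chromosome 8, 29333064 to 29350668, minus strand) encodes a nuclear phosphatase that acts on ERK and other MAP kinases. It was at 971, 1102, 949 and 987 CPM in parental and 1169, 956, 1029 and 878 CPM in knockout tumours. The highest and the lowest of the 8 values were both from knockout tumours. Its log2 fold change was 0.0081 (95% interval -0.22 to 0.23, edgeR adjusted p = 0.965), and the sign turned under 3 alternatives on all tumours and when parental replicate 1, 3 or 4 or knockout replicate 1 or 3 was left out. With 18754 to 25014 counts per library, depth did not limit this comparison.

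DUSP5 (ENSG00000138166, chromosome 10, 110497838 to 110511544, plus strand), a nuclear phosphatase specific for ERK, was the most variable of the 10. It was at 57.4, 88.1, 63.8 and 61.1 CPM in parental and 60.1, 80.3, 47.8 and 26.7 CPM in knockout tumours. Knockout replicate 4 was far below the other tumours, and the remaining values overlapped. The log2 fold change was -0.33 with a wide 95% interval of -0.92 to 0.26 (edgeR adjusted p = 0.397), and without knockout replicate 4 it was -0.10.

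Ratios within a tumour gave a further view of the phosphatases. The log2 ratio of DUSP6 to DUSP4 was -3.06 ± 0.150 (SD, n = 4) in parental tumours, against -3.63 ± 0.204 (SD, n = 4) after knockout, with no overlap (exact permutation p = 0.0286, 0.0572 after adjustment over the 6 pairs). The DUSP5 to DUSP4 ratio changed by -0.42 and the DUSP6 to DUSP5 ratio by -0.14, with exact permutation p of 0.257 and 0.743. Among other phosphatases for MAP kinases, DUSP10, which acts mainly on JNK and p38, fell from 15.0 ± 1.82 to 8.73 ± 2.73 CPM (log2 fold change -0.78, edgeR adjusted p = 0.0137). DUSP1, an immediate early gene, was at 137 ± 23.3 and 161 ± 24.4 CPM (log2 fold change 0.23, edgeR adjusted p = 0.246). DUSP2, DUSP7, DUSP8, DUSP9 and DUSP16 did not pass the threshold, with log2 fold changes from -0.62 to 0.08.

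The Sprouty genes pointed in different directions. SPRY2 (ENSG00000136158, chromosome 13, 80335976 to 80340951, minus strand), an inhibitor of receptor-to-RAS signalling, was the only gene of the 10 that rose. It was at 13.9, 11.3, 11.6 and 12.0 CPM in parental and 17.6, 17.6, 18.1 and 19.9 CPM in knockout tumours. Every knockout tumour lay above every parental tumour. Its log2 fold change was 0.59 (95% interval 0.35 to 0.82, edgeR adjusted p = 0.00183, SE 0.106), a 1.50-fold rise that rested on 231 to 282 counts per parental and 361 to 426 counts per knockout library.

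SPRY4 (ENSG00000187678, chromosome 5, 142310427 to 142326455, minus strand), which also restrains RAS activation, was at 14.8, 15.5, 18.1 and 17.5 CPM in parental and 16.7, 14.7, 14.5 and 9.48 CPM in knockout tumours. The groups overlapped, and knockout replicate 4 was again the lowest. The log2 fold change was -0.25 (95% interval -0.61 to 0.10, edgeR adjusted p = 0.281), and without knockout replicate 4 it was -0.11. Against SPRY2 in the same tumours, the log2 ratio of SPRY4 to SPRY2 was 0.09, 0.46, 0.64 and 0.55 in parental and -0.07, -0.26, -0.32 and -1.07 in knockout tumours. All parental ratios were positive and all knockout ratios negative (exact permutation p = 0.0286, 0.0572 after adjustment over the 6 pairs).

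SPRY1, the Sprouty gene outside the list with the highest level, fell from 27.1, 24.0, 25.5 and 26.4 CPM in parental to 13.5, 15.7, 10.2 and 9.57 CPM in knockout tumours. Its log2 fold change was -1.07 (edgeR adjusted p = 0.000350, SE 0.151). SPRY2 and SPRY1 thus changed in opposite directions in the same tumours. SPRY3 was below 1 CPM in both group means and gave no call.

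SPRED2 (ENSG00000198369, chromosome 2, 65310851 to 65432637, minus strand) was at 57.0, 56.7, 61.7 and 59.6 CPM in parental and 44.3, 48.7, 45.0 and 35.9 CPM in knockout tumours, without overlap. The fitted log2 fold change was -0.43 (95% interval -0.65 to -0.22, edgeR adjusted p = 0.00756, SE 0.0995), or 74.0% of the level in parental tumours. SPRED1 (ENSG00000166068, chromosome 15, 38252326 to 38357249, plus strand), the other neurofibromin partner of the list, was at 58.2, 55.4, 46.0 and 58.5 CPM in parental and 41.6, 54.7, 45.2 and 35.1 CPM in knockout tumours. Here the groups overlapped through parental replicate 3 and knockout replicate 2. The log2 fold change of SPRED1 was -0.30 (95% interval -0.60 to -0.01, edgeR adjusted p = 0.119), and it passed the threshold without knockout replicate 2 (-0.42, edgeR adjusted p = 0.0363). SPRED1 and SPRED2 were not shown to differ in their response, since their log2 ratio changed by -0.13 (exact permutation p = 0.457). SPRED3 was near the detection limit at 0.688 ± 0.212 and 0.702 ± 0.416 CPM (SD, n = 4 each), and the sign of its log2 fold change of 0.02 turned under several alternatives.

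**Figure D2:**
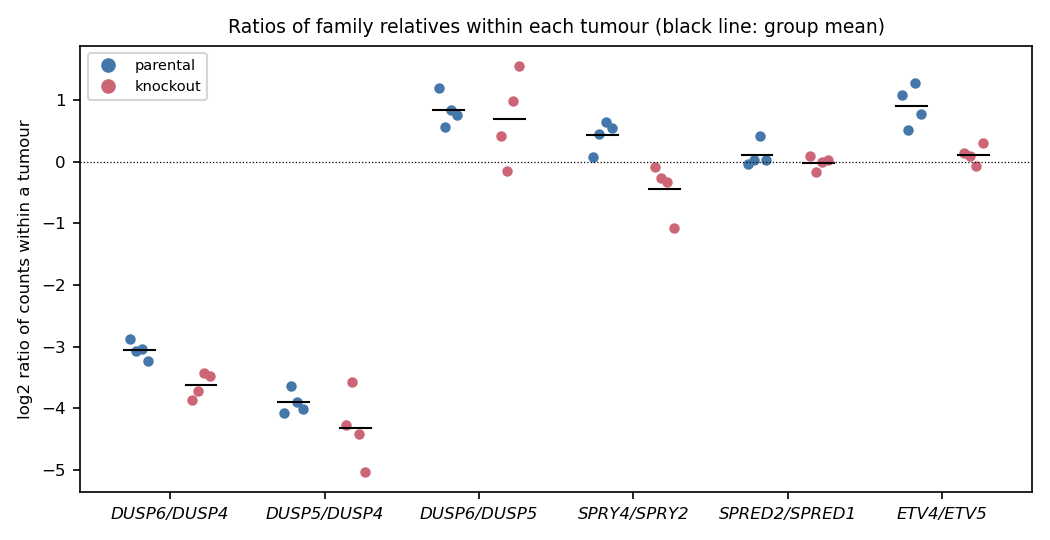
Log2 ratio of the counts of 2 relatives within each tumour (y axis) for 6 pairs (x axis), parental in blue and knockout in red, with a black line at each group mean. The groups are apart for DUSP6/DUSP4, SPRY4/SPRY2 and ETV4/ETV5 and overlap for the other 3 pairs.

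PHLDA1 (ENSG00000139289, chromosome 12, 76025447 to 76033932, minus strand) encodes a pleckstrin homology-like domain protein and is part of transcript signatures of MEK activity. It was at 432, 532, 338 and 442 CPM in parental and 328, 230, 280 and 210.0 CPM in knockout tumours. The groups did not overlap, but the gap between parental replicate 3 and knockout replicate 1 was small. On the log2 scale PHLDA1 changed by -0.73 (95% interval -1.09 to -0.38, edgeR adjusted p = 0.00583, SE 0.161), or 60.1% of the level in parental tumours. Both antisense genes annotated over PHLDA1 exons held few counts, 37 to 107 and 13 to 33 per library. Reads over the shared bases may be lost or misassigned, so these counts do not show the effect on PHLDA1. Of its relatives, PHLDA2 fell from 21.2 ± 5.20 to 13.1 ± 0.792 CPM (log2 fold change -0.69, edgeR adjusted p = 0.00726), and PHLDA3 was at 25.5 ± 1.36 and 26.8 ± 4.54 CPM with no call (log2 fold change 0.07).

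Among all 13 relatives outside the list, 3 fell, none rose and 10 gave no call, with a median log2 fold change of -0.06, where 27.0% of all genes changed and 14.1% fell. The 3 that fell were SPRY1, DUSP10 and PHLDA2.

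**Figure D3:**
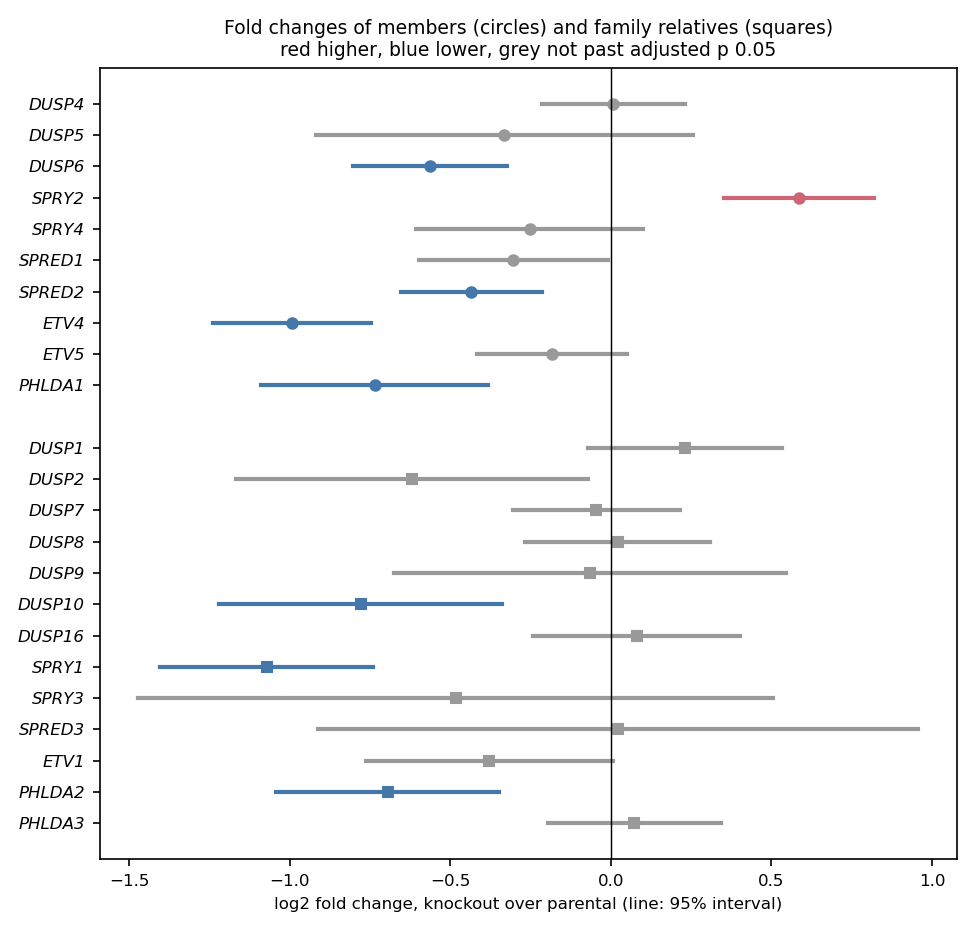
Log2 fold change of knockout over parental (x axis) with its 95% interval for the 10 genes (circles) and 13 relatives from the same families (squares); red is higher, blue lower and grey not past an adjusted p of 0.05. SPRY2 is the only red point, at 0.59, and SPRY1 and ETV4 are the lowest blue points, at -1.07 and -0.99.

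The tumours of a group were not equally low. In knockout replicate 4, 7 of the 10 genes had the lowest value of the 4 knockout tumours, and 1, SPRY2, had the highest. The mean log2 (CPM + 1) over the 10 genes was 5.50 in that tumour, 5.81 to 5.85 in the other knockout tumours and 6.02 to 6.14 in parental tumours. That library also had the most reads outside annotated features (10.4%) and the largest mitochondrial share (10.9%) of the 8, at 21256116 gene counts. Their part in the low values was not tested. Without knockout replicate 4 the median log2 fold change of the 10 was -0.17 in place of -0.32, and the same 5 genes were called. In parental tumours no replicate was lowest for more than 4 of the 10 genes. Leaving out parental replicates 2 and 3, the tumours with the most leukocyte marker counts, also kept all 5 calls; that analysis was added after the data were seen.

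**Figure D4:**
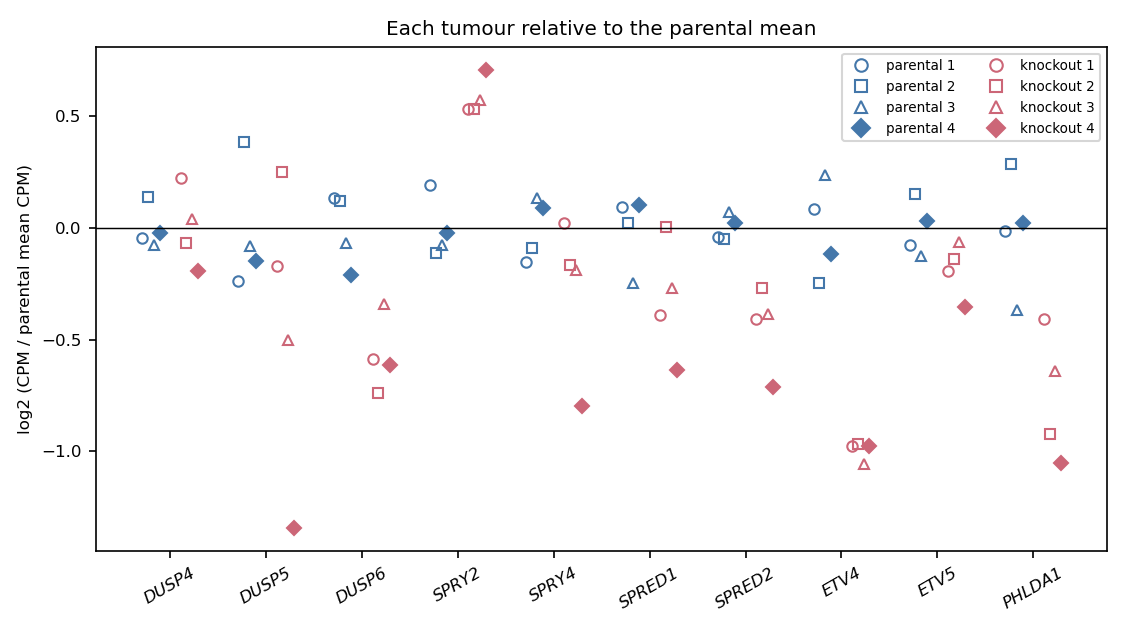
Log2 of each tumour's CPM over the parental mean (y axis) for the 10 genes (x axis); colour marks the group, the marker shape the replicate, and filled diamonds are replicate 4 of each group. Knockout replicate 4 is the lowest knockout tumour for 7 genes, most of all for DUSP5, while the knockout tumours coincide for ETV4.

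Genes with profiles most like the extremes of the list were found by the root mean square distance of log2 CPM over the 8 tumours, each gene centred on its parental mean. Nearest to SPRY2 were SLC22A5, CHCHD10 and SLC29A2, at distances of 0.056, 0.069 and 0.072. Among the genes nearest to ETV4 were FOXP4 and TOX2, both at a distance of 0.10. FOXP4 encodes a forkhead and TOX2 an HMG-box protein. FOXP4 went from 74.2 ± 5.08 to 37.8 ± 0.913 CPM (SD, n = 4 each).

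The rest of the pathway was then described by lists. Of 22 core genes from RAS to ERK and its targets, 3 fell, none rose and 19 gave no call (median log2 fold change -0.05), against 27.0% called over all genes. KSR1, a scaffold for RAF, MEK and ERK, fell from 129 ± 13.3 to 75.0 ± 10.2 CPM (SD, n = 4 each; log2 fold change -0.78, edgeR adjusted p = 0.000394). MAP2K1, a gene of a MEK kinase, had a log2 fold change of -0.36 (edgeR adjusted p = 0.0223), and this call was lost without parental replicate 1 (0.0524). MAP2K2, the other MEK gene, was at 142 ± 9.67 and 140 ± 5.35 CPM with no call (log2 fold change -0.02). It was named after its value was seen. MAPK3, the gene of an ERK kinase, was at 59.2 ± 1.96 and 58.7 ± 3.17 CPM and gave no call, with a log2 fold change of -0.01. Its sign turned with upper-quartile scaling. The count of 3 called core genes became 5 without knockout replicate 4, and 2 without parental replicate 1.

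Other brakes on the pathway behaved unevenly. Of 14 listed, 3 fell, none rose and 11 gave no call (median log2 fold change -0.12), against 27.0% called and 14.1% lower over all genes. With upper-quartile scaling, without a filter, with DESeq2 or with the replicate block, 1 was called higher and 3 lower. The largest log2 fold change of the list in the main fit was that of ERRFI1, at 0.48 (edgeR adjusted p = 0.0605). ERRFI1, named after its value was seen, was at 470 ± 81.8 and 656 ± 149 CPM (SD, n = 4 each). LRIG1, which promotes the breakdown of EGFR family receptors, fell from 155 ± 9.33 to 34.7 ± 5.58 CPM (n = 4 each, with SD). This was a log2 fold change of -2.16 (edgeR adjusted p = 6.92e-07, SE 0.117). RASA1, a GTPase-activating protein for RAS, had a log2 fold change of -0.42 (edgeR adjusted p = 0.00530). ERF, an ETS repressor that ERK exports from the nucleus, had a log2 fold change of -0.31 (edgeR adjusted p = 0.0194), a call lost without parental replicate 1 (0.0513) or knockout replicate 1 (0.0564). CIC, the repressor of ETV4 and ETV5, was at 172 ± 27.4 and 164 ± 18.2 CPM with no call (log2 fold change -0.07); it was named after its value was seen.

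Other transcripts known to be raised by ERK were described in the same way. Of 19 listed, 6 rose, 1 fell and 12 gave no call, with a median log2 fold change of 0.19. Over all genes 13.0% rose and 14.1% fell. LIF, a cytokine of the interleukin-6 family, rose from 50.2, 35.9, 84.4 and 43.2 CPM to 153, 203, 142 and 152 CPM, a log2 fold change of 1.60 (edgeR adjusted p = 0.000406, SE 0.232). PLAU, the urokinase gene, rose from 171 ± 39.2 to 306 ± 51.6 CPM (SD, n = 4 each; log2 fold change 0.84, edgeR adjusted p = 0.00308). UPP1, which encodes a uridine phosphorylase, had a log2 fold change of 0.66 (edgeR adjusted p = 0.000198). FOSL1, IER3 and EGR3 were the other genes that rose. The receptor gene EPHA4 was the gene that fell, from 8.72 ± 1.98 to 4.67 ± 1.13 CPM (log2 fold change -0.90, edgeR adjusted p = 0.00848). EPHA2 (159 ± 24.1 and 184 ± 28.0 CPM) gave no call. The cyclin D1 gene CCND1 (332 ± 31.6 and 333 ± 69.6 CPM) had a log2 fold change of 0.0055, whose sign depended on the analysis.

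Upstream of RAS, 9 of 14 tested receptor and ligand genes changed, 6 higher and 3 lower, with a median log2 fold change of 0.31, against 27.0% of all genes. Only 3 were called higher without parental replicate 1, without knockout replicate 1, without knockout replicate 3 or with the replicate block, with 3 called lower each time. The EGFR ligand AREG rose from 10.3, 13.5, 6.25 and 8.33 CPM to 42.8, 33.6, 35.8 and 24.9 CPM, a log2 fold change of 1.84 (edgeR adjusted p = 0.000127, SE 0.225). EREG, another EGFR ligand, rose from 16.4 ± 5.79 to 50.1 ± 13.2 CPM (SD, n = 4 each; log2 fold change 1.62, edgeR adjusted p = 0.000919). FGFR4 rose from 5.18 ± 0.340 to 9.60 ± 1.05 CPM (log2 fold change 0.89, edgeR adjusted p = 0.000478). EGFR itself was at 148 ± 29.1 and 253 ± 103 CPM, with overlapping groups. Its log2 fold change was 0.77 (edgeR adjusted p = 0.0425), and the call was lost when parental replicate 1, 3 or 4 or knockout replicate 1 or 3 was left out (edgeR adjusted p 0.00966 to 0.126 over the 8 tumours left out in turn). It was also lost with limma-voom (adjusted p = 0.0626). The genes that fell, named after their values were seen, were ERBB2 (286 to 195 CPM, edgeR adjusted p = 0.00409), ERBB3 (426 to 268 CPM, edgeR adjusted p = 0.00459) and FGFR3 (2.71 to 1.21 CPM, edgeR adjusted p = 0.00935).

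**Figure D5:**
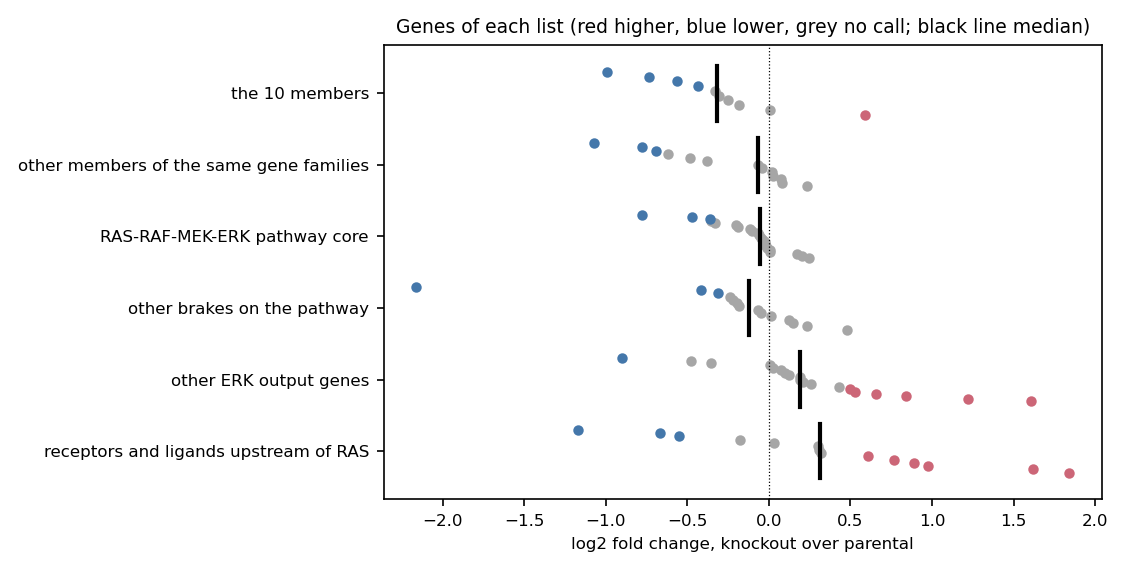
Log2 fold change of knockout over parental (x axis) for the tested genes of 6 lists (y axis); each point is a gene, red higher, blue lower, grey not past the threshold, and the black line is the list's median. The medians run from -0.32 for the 10 members to 0.31 for receptors and ligands, and LRIG1 is the point at -2.16.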

How the data were processed

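RNA sequencing of 8 xenograft tumours was used, with groups and replicate numbers from the sample titles. The authors deposited unnormalised read counts for each gene symbol, 1 file per tumour, in the layout of htseq-count; TopHat2 2.1.1, HTSeq 0.11.0 and build hg38 are named in the submitters' processing notes, without roles or options. The annotation, the strand setting and any removal of mouse reads are not given in the sources used here. Mouse reads, paralogs and overlapping genes can therefore shift a count. The 5 summary lines entered neither the library sizes nor any test.

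Counts were fitted with edgeR 4.0.16 in R 4.3.3: filterByExpr (minimum count 10, minimum total 15), TMM scaling, the quasi-likelihood test without covariate, and Benjamini-Hochberg adjustment over 16219 genes, with adjusted p under 0.05 called changed. Every pair of libraries differed by more than counting noise (chi-square per degree of freedom at least 9.05), so none was treated as a repeat deposit; this does not show that they are separate animals. The fit was tested on simulated data. For single values the exact permutation test was used, two-sided (smallest p 0.0286). Alternatives used limma 3.58.1 (voom) and DESeq2 1.42.0, other scalings and filters, the replicate number as a block, and leaving out tumours.

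The members, lists and named genes were chosen with earlier results of these data known. The rule named SMARCA4, the 10 members, 11 further genes whatever their result, the 3 called genes of smallest p in each of 5 lists (average log2 CPM at least 1), and the 3 nearest genes to the largest rise and the largest fall. Some of the named genes are not reported here.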

Additional observations from a re-analysis of the deposited data

Results flagged for a closer look

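In 66 sets of 4 tumours (33 named genes in 2 groups), 3 held a tumour far from the other 3 relative to the range of the set, or 4.55%, where chance gives about 5%. ETV4 was at 17.3 CPM in knockout replicate 3, against 18.3 to 18.4 CPM in the other knockout tumours, a difference that stands out only because those 3 values nearly coincide. KSR1 was at 90.3 CPM in knockout replicate 4, against 69.1 to 70.6 CPM in the others. MAP2K1 was at 89.0 CPM in knockout replicate 4, against 112 to 117 CPM in the others.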

How the results depend on the processing

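Of 180 recomputed fold changes of the 10 genes, 171 kept their direction and their side of the threshold. With each tumour left out in turn SPRED1 was -0.42 to -0.21 and was called once, without knockout replicate 2. DUSP4 was -0.013 without scaling factors, -0.012 without a filter, -0.0018 with the 10 most abundant genes left out of library sizes, and -0.069 to 0.071 when 1 tumour was left out. Of the other 23 named genes, 16 kept direction and call throughout. CCND1 was -0.0019 with RLE scaling, -0.014 without scaling factors, -0.016 without a filter, -0.0042 without the 10 most abundant genes in library sizes, -0.0020 with DESeq2, -0.015 with limma-voom, -0.043 without parental replicates 2 and 3, and -0.089 to 0.14 when 1 tumour was left out. SPRED3 was -0.000485 without scaling factors, -0.13 with limma-voom and -0.37 to 0.29 when 1 tumour was left out. MAPK3 was 0.026 with upper-quartile scaling and -0.036 to 0.028 when 1 tumour was left out. The change in the DUSP6 to DUSP5 ratio ran from -0.43 to 0.14. Receptors and ligands called higher numbered 3 to 6 when 1 tumour was left out and 3 with the replicate block. Called core genes numbered 2 to 5 when 1 tumour was left out and 5 without parental replicates 2 and 3. All genes called numbered 3501 to 4946 over the 18 alternatives. The cause of these shifts was not tested.

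Same-numbered tumours were not found to be paired: their deviations correlated at -0.043, -0.022, -0.19 and 0.086, and 0 parental and 1 knockout tumours correlated best with their own number. With the replicate block 3871 genes and 5 of the 10 members were called; CCND1 was -0.014, SPRED3 -0.062, and ETV1 (-0.37) was called while EGFR (0.70) was not.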

Other observations

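The antisense gene AC011611.3, which shares 553 exon bases with PHLDA1, held 328 counts over the 4 parental and 197 over the 4 knockout libraries, and AC011611.4, which shares 779, held 89 and 89. Without known strand, reads over the shared bases cannot be assigned to these genes or to PHLDA1.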
